A study of Homo sapiens with 15 samples.

Results

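Transcripts of 40 genes that act in the G2 phase and mitosis were followed in H1 human embryonic stem cells on their way to cardiomyocytes. The 40 genes were taken by symbol from a table of 60605 genes, and all 40 were among the 21206 genes whose FPKM reached 1 in any of the 15 libraries. FPKM is the count of a gene scaled by its exonic length and by the total of the library, and it was used for every level given. The genes were placed in 8 groups by role. There were 8 kinases, phosphatases and cyclins of mitotic entry, 2 genes of the anaphase promoting complex (APC/C), 5 genes of the spindle checkpoint, 5 of the kinetochore and centromere, 4 of the chromosomal passenger complex, 9 spindle motors and microtubule proteins, 5 genes of cytokinesis and 2 of chromosome structure.

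Bulk RNA sequencing was performed once per time point on wild-type H1 cells, which were induced on day 0 with CHIR99021, a GSK3 inhibitor that activates WNT signalling. Libraries of days 0, 1 and 2 were common to all arms. From day 2, NP-ctrl cells (not passaged) were left in place without a further inducer, NP-IWP2 cells were left in place with IWP2, an inhibitor of WNT secretion, and passaged cells were dissociated and replated at lower density without a WNT inhibitor. Each arm had 1 library on each of days 3, 5, 7 and 10. All arms carried the same induction, with CHIR99021 on day 0 and insulin on day 1. NP-ctrl and NP-IWP2 are together called the static arms. The paper states that the ROCK inhibitor Y27632 was part of its differentiation experiments after those on cell survival. If it was added at replating here, its part cannot be told apart from that of replating. No library had a biological replicate. Differences between single libraries are given on log2(FPKM + 1), which understates the change of low genes, and the ratio of the shares of counts is given with its exact 95% interval. A gene was counted as above or below counting error where that interval excluded 1. These intervals cover counting error only, since there was 1 library per arm and day. They may be too narrow even for that, since copies made by PCR are not independent molecules.

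Genes of this module are transcribed at low levels in G1 and rise towards mitosis, and many of their proteins are destroyed as cells leave mitosis. In many cell types their transcription is under MYBL2, FOXM1 and the MuvB complex, and in cells that leave the cycle the DREAM complex represses them through promoter elements named CHR. In the heart, cardiomyocytes largely withdraw from the cycle as they mature. In bulk samples, fewer cycling cells and less RNA per cycling cell cannot be told apart.

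Total counts ranged from 13254723 to 20250115, and 1.53% (passaged day 3) to 10.3% (passaged day 10) of them came from genes of the mitochondrial genome. The 7 cardiomyocyte markers, TNNT2, NKX2-5 and MYH6 among them, were all above an FPKM of 1 in each arm on day 10, with a sum of 479 for NP-ctrl, 1461 for NP-IWP2 and 3476 after passaging. The 6 markers of endoderm or liver summed to 4007, 1178 and 17.9 in the same order, with 2 of the 6 at 0 in passaged cells, and the 7 markers of epicardial cells or fibroblasts summed to 4061, 1152 and 89.5. The libraries of day 10 therefore differed in these markers as well as in the members.

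Promoter windows from RefSeq on GRCh38.p14, from 250 bases before to 50 bases after the start, were at hand for 34 of the 40 members, in 43 windows. The letters TTTGAA on either strand (TTCAAA on the other), the core of the CHR, lay in 29 of the 43 windows (67.4%), against 15.2% of all 35116 windows. CCAAT on either strand (ATTGG on the other) lay in 32 windows (74.4%), against 34.6% of all. Both were found in 55.8% of the windows of members and 5.90% of all windows. In a stretch chosen after the positions were seen, from 35 to 10 bases before the start, TTTGAA began in 14 windows of members (32.6%) and in 1.38% of all windows. A match is a description of these letters and not of binding. The 150 bases before the start are shown for 6 members on which the results turn, in the 5′ to 3′ direction of the gene, with TTTGAA and CCAAT on either strand in capitals.
CCNB1, chr5:69167000-69167149, plus strand: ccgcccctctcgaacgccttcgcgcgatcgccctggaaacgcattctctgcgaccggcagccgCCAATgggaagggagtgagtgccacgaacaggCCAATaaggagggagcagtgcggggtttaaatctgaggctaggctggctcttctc
CCNB2, chr15:59104996-59105145, plus strand: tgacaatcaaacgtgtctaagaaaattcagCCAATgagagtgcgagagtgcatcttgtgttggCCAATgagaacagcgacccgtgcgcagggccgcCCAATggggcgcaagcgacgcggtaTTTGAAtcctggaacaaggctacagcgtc
PLK1, chr16:23678739-23678888, plus strand: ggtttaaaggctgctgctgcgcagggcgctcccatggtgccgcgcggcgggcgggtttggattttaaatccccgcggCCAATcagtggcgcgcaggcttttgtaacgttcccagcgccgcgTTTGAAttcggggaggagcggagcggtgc
CDC20, chr1:43358831-43358980, plus strand: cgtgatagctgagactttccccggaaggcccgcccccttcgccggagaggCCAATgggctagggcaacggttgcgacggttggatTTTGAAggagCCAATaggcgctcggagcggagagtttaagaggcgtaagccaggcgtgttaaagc
MKI67, chr10:128126424-128126573, minus strand: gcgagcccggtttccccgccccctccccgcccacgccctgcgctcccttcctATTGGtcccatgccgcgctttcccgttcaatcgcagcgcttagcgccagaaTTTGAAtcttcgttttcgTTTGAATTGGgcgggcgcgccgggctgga
BUB1, chr2:110678064-110678213, minus strand: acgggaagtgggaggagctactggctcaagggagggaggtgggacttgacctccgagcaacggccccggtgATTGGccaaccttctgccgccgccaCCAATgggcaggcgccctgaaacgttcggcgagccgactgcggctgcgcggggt
CCNB2, PLK1 and MKI67 each held TTTGAA 29 bases before the start, and in MKI67 it ran into an ATTGG. CDC20 held it 65 bases before the start between 2 CCAAT letters. CCNB1 and BUB1 held 2 CCAAT each and no TTTGAA in this stretch. The 26 members with TTTGAA in a window and the 8 without it had similar differences between passaged and NP-ctrl cells on day 10, with medians of -1.34 (-1.92 to -0.47) and -1.28 (-1.78 to -0.35).

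The first question was when the members left their high level in each arm. The members took 0.573% of all counts on day 0, 0.513% on day 1 and 0.585% on day 2, and still 0.597%, 0.592% and 0.548% on day 3 in NP-ctrl, NP-IWP2 and passaged. Their median FPKM was 24.4, 25.6 and 25.1 in the arms on day 3. The arms parted on day 5, when the members took 0.197%, 0.229% and 0.323% of the counts in the same order. On day 7 the shares were 0.242%, 0.273% and 0.243%. On day 10 they were 0.209%, 0.216% and 0.0755%, so that passaged cells were highest on day 5 and lowest on day 10.

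**Figure D1:**
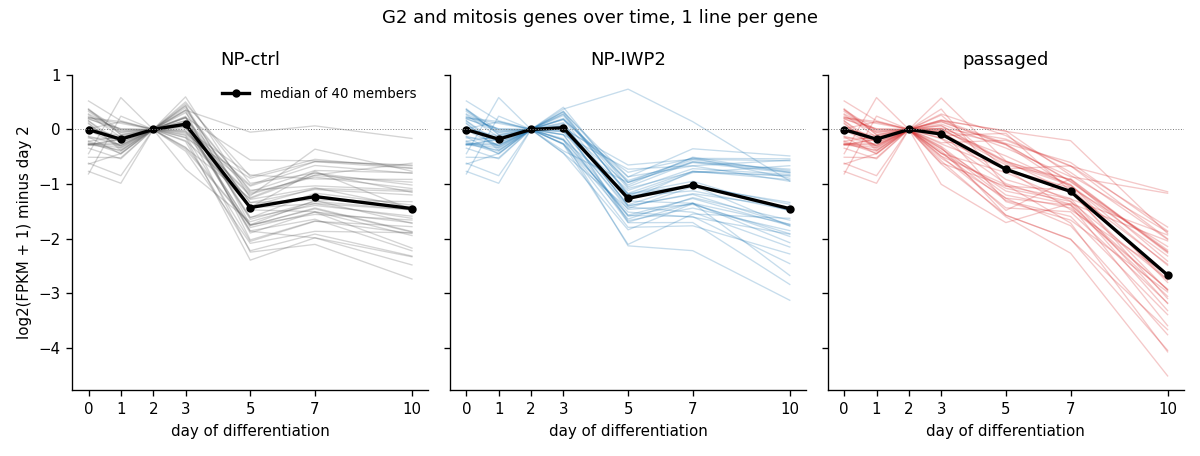
The difference in log2(FPKM + 1) from day 2 is plotted against the day of differentiation for the 40 members (thin lines) and their median (black) in each arm, with 1 library per point and days 0 to 2 common to the panels. The medians on day 5 were -1.43, -1.26 and -0.73, and those on day 10 were -1.45, -1.45 and -2.67.

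In both static arms most of the decrease lay between days 3 and 5. In NP-ctrl 33 of 40 members were lower by at least 1 on day 5 than on day 3, against 5.72% of all genes tested, and in NP-IWP2 34 of 40 were, against 7.05%. In passaged cells 6 of 40 were, namely CENPF, INCENP, CDC20, BIRC5, AURKB and BUB1, against 6.67%. Between days 5 and 7 the members went in opposite directions. They were above counting error on day 7 in NP-ctrl for 30 of 40 members (24.2% of all genes) and in NP-IWP2 for 28 (23.6%), with median differences of 0.30 and 0.25, whereas 33 of 40 were below counting error in passaged cells (32.4%), with a median of -0.41. From day 7 to day 10 the static arms also went down, with medians of -0.20 and -0.35. There 27 and 32 members were below counting error, against 21.7% and 24.5% of all genes. In the same interval 36 of 40 members were lower by at least 1 in passaged cells, against 3.85% of all genes, and the remaining 4 were BUB3, AURKA, NUSAP1 and PRC1.

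In passaged cells each of days 5, 7 and 10 was thus lower than the day before it in the series for 35 of 40 members, against 15.2% of all genes. The same held for 4 members in NP-ctrl (10.9% of all genes) and 5 in NP-IWP2 (14.5%). The ratio of day 3 to day 10 had a median of 7.47 in passaged cells (2.15 to 25.3), 3.14 in NP-ctrl (1.23 to 7.86) and 2.87 in NP-IWP2 (1.32 to 8.92). Compared with day 2, all 40 members were lower by at least 1 in passaged cells on day 10 (14.7% of all genes), 29 in NP-ctrl (10.4%) and 23 in NP-IWP2 (13.3%). The passaged library of day 10 held the lowest value of the 15 libraries for 39 members, and AURKA was lowest in NP-ctrl on day 10. Highest values were spread over the early libraries, with 14 members highest in NP-ctrl on day 3 and 11 on day 0.

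Each arm was fitted with a slope over days 3 to 10 on the counts, with the quasi-likelihood test of edgeR and adjustment over all 21206 genes. The p-values measure only the scatter of the days around a line within 1 series of cultures. In passaged cells 29 of 40 members fell, against 8.30% of all genes that fell, and the slopes of the 40 had a median of -0.36 log2 per day. The steepest was AURKB with -0.60 ± 0.13 (SE, edgeR adjusted p = 0.014), the kinase of the chromosomal passenger complex. CENPF fell by 0.47 ± 0.08 per day (edgeR adjusted p = 0.00676), CDC20 by 0.51 ± 0.10 (adjusted p = 0.00989) and MKI67 by 0.44 ± 0.09 (adjusted p = 0.0105). ANLN, AURKA, BUB1, BUB3, CCNA2, CDC25B, ECT2, HMMR, KIF20A, NUSAP1 and PRC1 did not pass in this edgeR fit, though their slopes were negative too. In NP-ctrl only AURKB and CDC20 passed (3.60% of all genes fell), and in NP-IWP2 AURKB, CDC20, INCENP and PLK1 (6.35%), although all 40 slopes were negative in both, with medians of -0.21 and -0.19. The count in passaged cells was 38 of 40 in DESeq2 (2513 of 21206 genes fell), 36 in limma (2037) and 34 in edgeR without a filter (1656 of 41457). In edgeR it moved with the libraries in the fit. It was 0 of 40 without the passaged library of day 3 (312 of 21206 genes fell) and 0 without that of day 10 (193). Both were chosen after seeing the data. With a day left out in all arms it was 31 without day 3 (4.42% of all genes fell) and 34 without day 5 (1495 of 21206). It was 3 without day 7 (517) and 0 without day 10 (201). The number of all genes that fell thus dropped too.

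The difference between the slopes was then tested. It was more negative in passaged cells than in NP-ctrl for 38 of 40 members and than in NP-IWP2 for 39, but none passed in edgeR, in DESeq2 or in limma, where 0.160% and 0.00472% of all genes passed in edgeR. At an unadjusted p under 0.05 there were 4 and 6 members in edgeR (15.6% and 7.59% of all genes), 6 and 7 in DESeq2, and 6 and 7 in limma. Without day 3 in all arms the edgeR counts at an unadjusted p under 0.05 were 36 and 33 of 40 (11.5% and 9.23% of all genes), with median differences in slope of -0.44 and -0.40, and again none passed after adjustment. They were 9 and 12 without day 5 (3091 and 1394 of 21206 genes) and 3 and 2 without day 7 (2107 and 1010). Without day 10 both counts were 0 (2145 and 770 of 21206 genes). The differences in slope were then positive for 33 and 20 of 40 members, with medians of 0.14 and 0.002. MKI67 had the smallest adjusted p against NP-ctrl, with a difference in slope of -0.35 ± 0.11 (edgeR adjusted p = 0.192). That no member passed does not show that the slopes were alike. In simulated counts this edgeR test recovered only 1 of 200 genes whose slope differed by 0.4 log2 per day, so it could hardly call differences of this size.

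The next question was whether the arms differed over days 3 to 10 as a whole, with day as a block. For 0 of 40 members did passaged cells differ from NP-ctrl in edgeR (4.40% of all genes did), and the same count was 0 against NP-IWP2 (1.33%) and 0 between the static arms (0.0189%). No member had an unadjusted p under 0.05 in edgeR in any of the 3 comparisons. DESeq2 and limma also called 0, with 1 member each at an unadjusted p under 0.05 in passaged against NP-ctrl and 0 otherwise. The smallest unadjusted p against NP-ctrl was that of CENPA, the histone variant that marks centromeres, with -0.72 ± 0.34 (edgeR adjusted p = 0.284). The values by day given next had opposite signs on days 5 and 10.

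**Figure D2:**
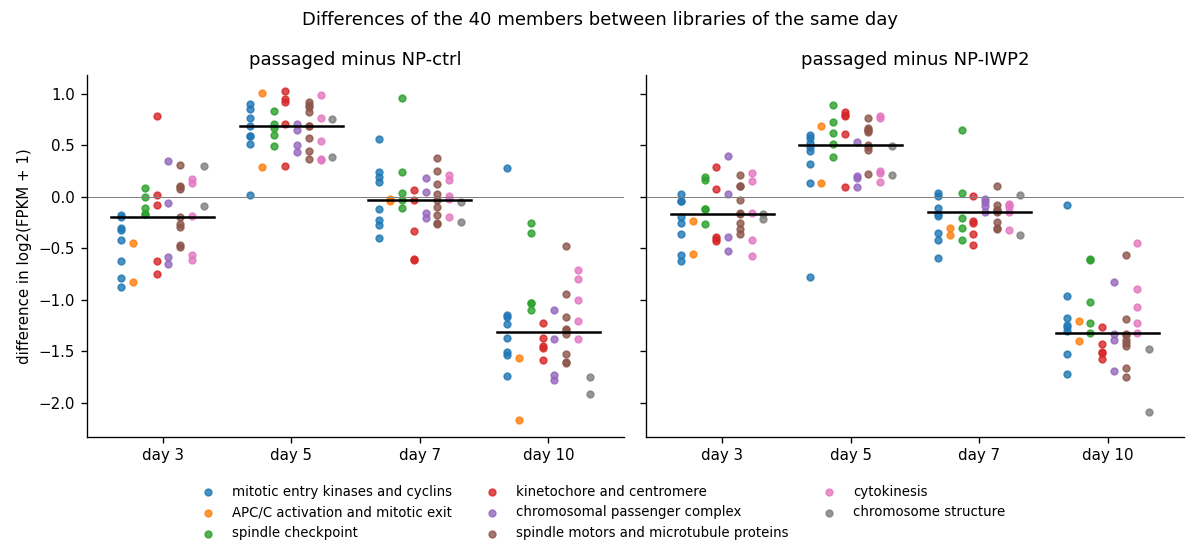
Differences in log2(FPKM + 1) of passaged cells from NP-ctrl (left) and from NP-IWP2 (right) on the same day are plotted for the 40 members, coloured by role, with a black line at the median. The medians from NP-ctrl were -0.19, 0.69, -0.03 and -1.32 on days 3, 5, 7 and 10, and those from NP-IWP2 were -0.17, 0.51, -0.14 and -1.32.

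On day 5 passaged cells had more of every member than NP-ctrl, with a median of 0.69, and 39 of 40 were above counting error, against 26.8% of all genes. The exception was CDC25B, at 14.9 in passaged cells and 14.7 in NP-ctrl. NDC80 and UBE2C were higher by at least 1, as were 3.74% of all genes. Against NP-IWP2, 39 of 40 members were higher and 35 were above counting error (25.4% of all genes). Markers of other cells differed on day 5 too. Those of epicardial cells or fibroblasts summed to 1669.6 for NP-ctrl, 983.8 for NP-IWP2 and 351 after passaging, and those of endoderm or liver to 141, 72.7 and 2.92 in this order, with 5, 5 and 1 of the 6 at an FPKM of at least 1. Cardiomyocyte markers summed to 443, 609.8 and 515. On day 10 passaged cells had less of 39 members than NP-ctrl, all 39 below counting error (35.6% of all genes) and 33 lower by at least 1 (11.7%). Against NP-IWP2 39 were below counting error (33.2%) and 32 lower by at least 1 (7.01%). The signs of these medians held under every scaling tried. The summed markers of liver, fibroblast and cardiomyocyte given above differed among all 3 arms on day 10. The members summed to an FPKM of 451 for NP-ctrl, 454 for NP-IWP2 and 163 after passaging on that day. The part of these markers in the differences of days 5 and 10 was not tested. On day 7 the difference from NP-ctrl was small, with 12 members above (21.2% of all genes) and 11 below counting error (32.8%), and the sign of its median changed with the scaling.

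All 8 cyclins, kinases and phosphatases of mitotic entry were below counting error on day 3 against NP-ctrl, as were 22.0% of all genes. In TPM, tried only for members shown in full, CDC25B was at 0.09. Against NP-IWP2, 5 of the 8 were below and 3 within counting error on day 3, with 5478 of 21206 genes below. These 8 members had 2433 (CCNB1) to 4760 bases (PLK1), and the trend with length on day 3 is given further below. CCNB1, the cyclin B that activates CDK1 at mitotic entry, was the highest of them, at 107 on day 2. It was at 117, 27.9, 36.8 and 32.0 on days 3, 5, 7 and 10 for NP-ctrl, at 93.2, 35.3, 43.8 and 30.7 for NP-IWP2, and at 94.9, 53.1, 40.6 and 13.1 after passaging. The ratio of passaged to NP-ctrl was 1.904 (1.77 to 2.05) on day 5 and 0.408 (0.366 to 0.455) on day 10. The other cyclin B, CCNB2, had the lowest ratio of the group on day 3, 0.537 (0.502 to 0.574), with levels of 62.7, 15.9, 15.5 and 11.2 for NP-ctrl, 52.5, 17.9, 17.4 and 10.1 for NP-IWP2, and 33.6, 26.2, 17.9 and 3.70 after passaging. From day 3 to day 5 CCNB2 thus kept most of its level in passaged cells and lost most of it in the static arms.

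AURKA, the kinase of centrosome maturation and spindle assembly, was the member that departed from the rest on day 10. Its levels were 39.6, 9.13, 11.5 and 8.47 for NP-ctrl, 34.0, 12.2, 17.4 and 11.2 for NP-IWP2, and 22.6, 13.5, 17.5 and 10.5 after passaging. On day 10 the ratio to NP-ctrl was 1.24 (1.07 to 1.43), above counting error, and the ratio to NP-IWP2 was 0.940 (0.828 to 1.07). Its activator on the spindle, TPX2, did not share this, with a ratio to NP-ctrl of 0.299 (0.264 to 0.337). CDC25B, a phosphatase that activates cyclin-bound CDK1, was highest of the 15 libraries in NP-IWP2 on day 5, at 26.1, against 14.7 in NP-ctrl and 14.9 in passaged cells. On day 10 it was at 13.5, 7.44 and 3.33 in the same order, a ratio of passaged to NP-ctrl of 0.247 (0.21 to 0.29).

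Of the other members of the group, CDK1, the kinase of mitotic entry, was at 23.0 for NP-ctrl, 27.0 for NP-IWP2 and 7.46 after passaging on day 10. The cyclin CCNA2, which pairs with CDK2 and CDK1, was at 20.3, 22.1 and 8.63 there. PLK1, the polo-like kinase of entry and spindle assembly, was at 7.83, 6.50 and 2.04, and CDC25C, a phosphatase of CDK1 like CDC25B, at 3.99, 5.39 and 1.22. These 4 genes were lowest of the 15 libraries in passaged cells on day 10.

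**Figure D3:**
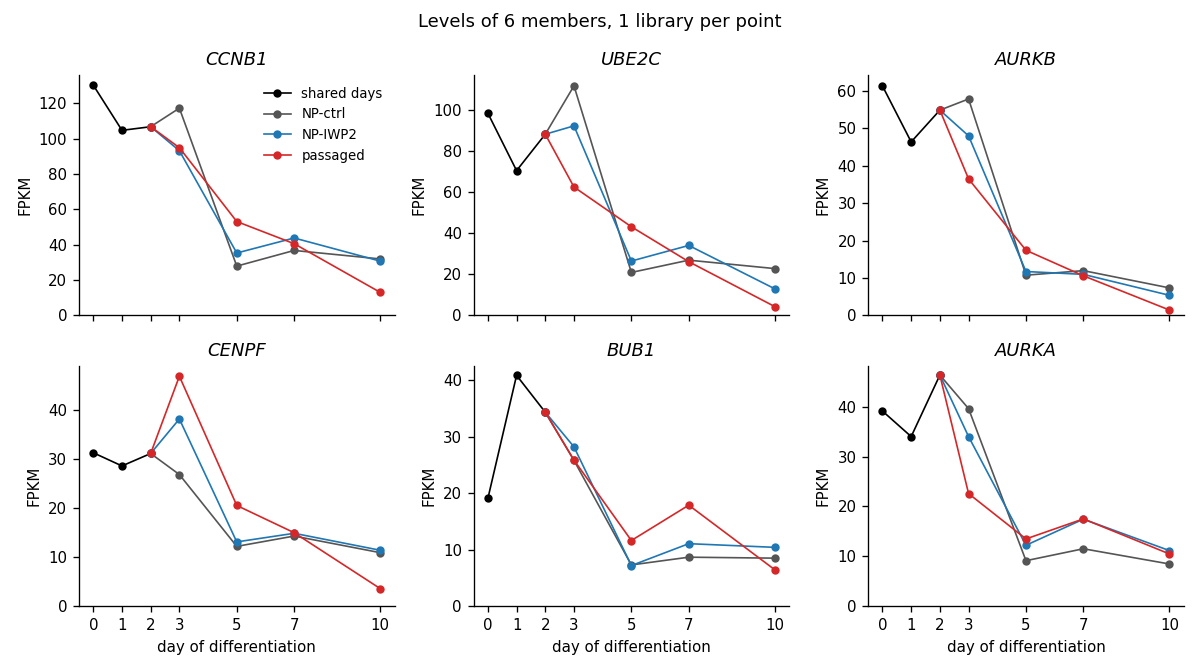
FPKM of CCNB1, UBE2C, AURKB, CENPF, BUB1 and AURKA is plotted against the day of differentiation, with the days common to all arms in black and NP-ctrl, NP-IWP2 and passaged cells in grey, blue and red. Passaged cells held the highest CENPF of all libraries on day 3 (46.8), the highest BUB1 of the 3 arms on day 7 (17.9), and an AURKA level on day 10 (10.5) between those of the static arms.

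The activators of the APC/C had the lowest group median on day 10 against NP-ctrl (-1.87), while against NP-IWP2 theirs was -1.30 and that of chromosome structure was lowest (-1.78). UBE2C, the ubiquitin-conjugating enzyme of the complex, was at 88.3 on day 2, then at 112, 20.9, 26.9 and 22.8 for NP-ctrl, 92.4, 26.5, 34.1 and 12.96 for NP-IWP2, and 62.6, 43.2, 26.2 and 4.29 after passaging. Its ratio of passaged to NP-ctrl went from 0.559 (0.52 to 0.601) on day 3 to 2.06 (1.83 to 2.32) on day 5 and 0.188 (0.147 to 0.239) on day 10. CDC20, which carries substrates to the complex once the checkpoint is satisfied, was at 95.5 on day 2, 104, 25.5, 23.3 and 16.3 for NP-ctrl, 89.4, 28.5, 28.6 and 12.5 for NP-IWP2, and 76.0, 31.4, 23.0 and 4.83 after passaging. CDC20 was lower on day 10 than on day 7 in each arm.

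Against NP-ctrl, genes of the spindle checkpoint had the narrowest range of the groups on day 3 (-0.17 to 0.09), and BUB3 and BUB1 had the smallest decreases of the members on day 10 (-0.25 and -0.35). Against NP-IWP2 neither held, with a range of -0.27 to 0.20 on day 3. BUB1B, which encodes the checkpoint protein BUBR1, was at 24.4, 8.47, 9.80 and 9.05 for NP-ctrl, 27.2, 9.55, 11.5 and 8.53 for NP-IWP2, and 22.4, 14.0, 11.7 and 3.70 after passaging. MAD2L1, which encodes MAD2, the inhibitor of CDC20, was at 22.3, 8.19, 8.68 and 7.04 for NP-ctrl, 17.4, 8.11, 11.0 and 8.84 for NP-IWP2, and 19.7, 14.0, 7.96 and 2.94 after passaging. Both were highest of the arms on day 5 and lowest on day 10 in passaged cells. BUB1, a kinase at the kinetochore, had another course. Together with the kinetochore motor CENPE it was higher by at least 1 on day 1 than on day 0 (40.8 against 19.1, and 15.1 against 6.90 for CENPE), as were 3.26% of all genes, and on day 7 it was at 8.68, 11.1 and 17.9 in the 3 arms, a ratio of passaged to NP-ctrl of 2.06 (1.89 to 2.25). On day 10 BUB1 was at 8.51, 10.4 and 6.45, a ratio to NP-ctrl of 0.758 (0.68 to 0.846). BUB3, which brings BUB1 and BUBR1 to kinetochores, went from 21.0 on day 3 to 8.15 on day 10 in passaged cells, and TTK, the checkpoint kinase MPS1, was at 6.65, 7.74 and 2.74 on day 10.

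**Figure D4:**
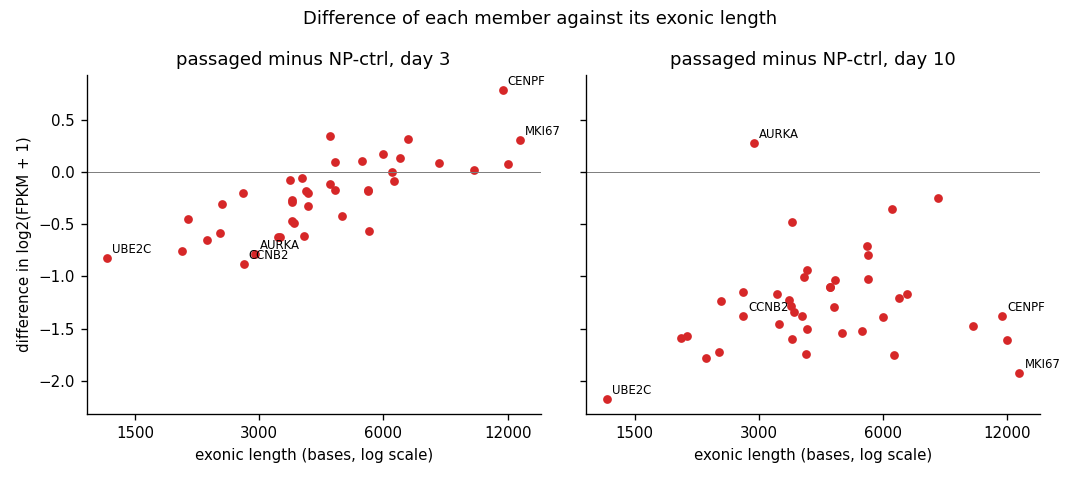
The difference in log2(FPKM + 1) of passaged cells from NP-ctrl is plotted against exonic length on a log axis for the 40 members, on day 3 (left) and day 10 (right). On day 3 the shortest member, UBE2C (1286 bases), was at -0.83 and the longest, MKI67 (12845 bases), at 0.30. The order by length was weaker on day 10, with a Spearman's rho of 0.168 against 0.780 on day 3.

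The kinetochore and centromere group had the widest range of the groups on day 3 against NP-ctrl, from -0.75 to 0.78. CENPF, a large protein of the outer kinetochore that accumulates in G2, was at 31.1 on day 2 and then at 26.8, 12.2, 14.3 and 10.9 for NP-ctrl, 38.1, 13.1, 14.8 and 11.4 for NP-IWP2, and 46.8, 20.5, 14.96 and 3.59 after passaging. Its ratio of passaged to NP-ctrl on day 3 was 1.75 (1.69 to 1.81), the highest of the members. CENPA was at 20.8, 5.14, 8.71 and 4.95 for NP-ctrl, 15.97, 6.06, 6.57 and 4.92 for NP-IWP2, and 11.9, 6.55, 5.34 and 0.98 after passaging, with a ratio of 0.573 (0.5 to 0.656) on day 3. NDC80 and NUF2, which together bind microtubules at the kinetochore, were at 14.1 and 14.2 in passaged cells on day 5, against 6.41 and 7.04 in NP-ctrl, and CENPE at 7.91 against 3.62. On day 10 passaged cells had 3.03 of NDC80, 1.88 of NUF2 and 1.28 of CENPE.

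The order of the members on day 3 followed their exonic length. Of the 14 members longer than 5000 bases, 10 were above their NP-ctrl level in passaged cells, with a median of 0.08, and of the 9 shorter than 3000 bases none was, with a median of -0.65. Spearman's rho between length and difference was 0.780 over the 40 members, which share the same 2 libraries, and 0.301 over 8136 genes with a mean FPKM of at least 5. With the trend of those genes removed, rho over the members was 0.556, the median -0.17, and 8 of 40 members were higher. NP-IWP2 minus NP-ctrl on day 3, which shares the NP-ctrl library, gave rho values of 0.715 and 0.493, and passaged minus NP-IWP2 gave 0.433 and 0.00811. On day 10 rho was 0.168 over the members in passaged minus NP-ctrl, and 0.350 with the trend removed. In passaged minus NP-IWP2 these were 0.024 and 0.391. How far length enters the order of day 3 beyond these values was not tested. Thus the single values of CENPF, MKI67, UBE2C or CENPA on day 3, and those of the mitotic entry group, carry this trend.

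Within the chromosomal passenger complex, AURKB, its kinase, was at 54.9 on day 2 and at 57.9, 10.8, 11.98 and 7.36 for NP-ctrl, 48.0, 11.7, 11.0 and 5.38 for NP-IWP2, and 36.5, 17.4, 10.6 and 1.44 after passaging. The ratio of passaged to NP-ctrl was 0.631 (0.586 to 0.678) on day 3, 1.62 (1.42 to 1.85) on day 5 and 0.195 (0.14 to 0.267) on day 10. AURKB thus fell in all arms and furthest in passaged cells. The scaffold INCENP was at 22.5 in NP-ctrl and 28.9 in passaged cells on day 3, and at 7.19 and 2.83 on day 10. Survivin, encoded by BIRC5, went from 44.6 to 3.10 in passaged cells and from 46.5 to 9.66 in NP-ctrl between days 3 and 10, and borealin, encoded by CDCA8, from 25.3 to 2.13 and from 38.3 to 9.36.

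Among spindle motors and microtubule proteins TPX2 was the highest, at 79.4, 21.3, 24.9 and 21.6 for NP-ctrl, 72.4, 24.8, 28.8 and 19.3 for NP-IWP2, and 64.7, 35.03, 27.3 and 6.45 after passaging. KIF2C, a kinesin that depolymerises microtubules at centromeres, was at 41.3, 7.88, 10.8 and 8.27 for NP-ctrl, 37.8, 12.5, 12.7 and 8.61 for NP-IWP2, and 29.1, 14.8, 10.6 and 2.67 after passaging. ASPM, a spindle pole protein, was at 11.3, 5.28, 7.16 and 6.39 for NP-ctrl, 15.2, 4.55, 6.46 and 7.14 for NP-IWP2, and 12, 7.57, 5.81 and 1.42 after passaging, a ratio to NP-ctrl of 0.223 (0.194 to 0.256) on day 10. All 3 were highest of the arms on day 5 and lowest on day 10 in passaged cells.

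The same held for KIF11, the motor that pushes spindle poles apart, for the chromokinesin KIF4A and for the kinesin KIF20B, which were at 15.1, 12.7 and 10.7 on day 5 and at 3.38, 2.53 and 2.24 on day 10 in passaged cells. NP-ctrl had 9.80, 6.38 and 5.41 of these 3 on day 5 and 11.6, 7.67 and 6.26 on day 10. HMMR and DLGAP5, proteins of spindle assembly, were at 2.46 and 5.39 in passaged cells on day 10, against 5.65 and 14.6 in NP-ctrl. NUSAP1, a microtubule-bundling protein, was at 0.31 against 0.82, but 86.8% of its exonic bases overlapped other genes, so that its counts are uncertain and its low level may not be that of the gene.

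In the cytokinesis group KIF20A, a kinesin of the central spindle, was at 50.8, 12.7, 15.7 and 9.58 for NP-ctrl, 49.5, 14.0, 16.6 and 12.2 for NP-IWP2, and 32.9, 16.6, 15.8 and 4.27 after passaging. ANLN, which encodes the scaffold anillin of the contractile ring, was at 24.96, 12.6, 17.4 and 20.4 for NP-ctrl, 24.0, 15.7, 20.8 and 18.1 for NP-IWP2, and 28.3, 18.9, 19.6 and 7.17 after passaging. In NP-ctrl ANLN was higher on day 10 than on day 5, and in passaged cells lower. ECT2, the exchange factor that starts furrowing, and KIF23, a kinesin of the centralspindlin complex, were at 5.28 and 3.25 in passaged cells on day 10, against 9.25 and 8.83 in NP-ctrl. PRC1, which bundles the microtubules of the midzone, was at 0.40 against 1.43, with 61.9% of its exonic bases shared with other genes and thus uncertain counts.

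Both genes of chromosome structure were far lower in passaged cells on day 10. TOP2A, the topoisomerase that untangles chromosomes, was at 89.3 on day 2 and at 99.7, 34.6, 41.1 and 38.3 for NP-ctrl, 109, 41.6, 51.7 and 48.9 for NP-IWP2, and 93.7, 59.2, 39.6 and 10.7 after passaging. MKI67, which coats mitotic chromosomes and is a common marker of cycling cells, was at 28.6 on day 2 and at 16.8, 8.15, 10.6 and 9.63 for NP-ctrl, 23.7, 9.34, 8.69 and 6.81 for NP-IWP2, and 21.0, 11.0, 8.78 and 1.81 after passaging. On day 10 the ratios of passaged to NP-ctrl were 0.280 (0.261 to 0.3) for TOP2A and 0.187 (0.167 to 0.21) for MKI67. MKI67 and UBE2C had the lowest of these ratios among the members.

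Lists for the rest of the cycle were set beside the members, chosen as the members were with earlier results of these data known. On day 3, 26 members were below and 9 above counting error in passaged cells against NP-ctrl (22.0% and 30.8% of all genes), with a median of -0.19. In the same pair of libraries 24 of 25 S phase genes were higher, with a median of 0.91, while the median of all genes tested was 0.03. CDC6 and MCM2, which load the replicative helicase and form part of it, were at 17.0 and 44.1 in passaged cells and at 5.64 and 17.2 in NP-ctrl. The sign of the members' median on day 3 depended on the scaling, since it was 0.08 in TPM, where the median of all genes moved to 0.28, but the median of the members minus that of the S phase genes was -1.10 on the main scale and -1.13 in TPM. On day 10 the S phase genes were at a median of -0.46, above that of the members at -1.32. The 50 other genes of G2 and mitosis had medians of 0.12, 0.56, -0.12 and -1.13 on days 3, 5, 7 and 10, and 31 of the 50 were lower by at least 1 on day 10.

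**Figure D5:**
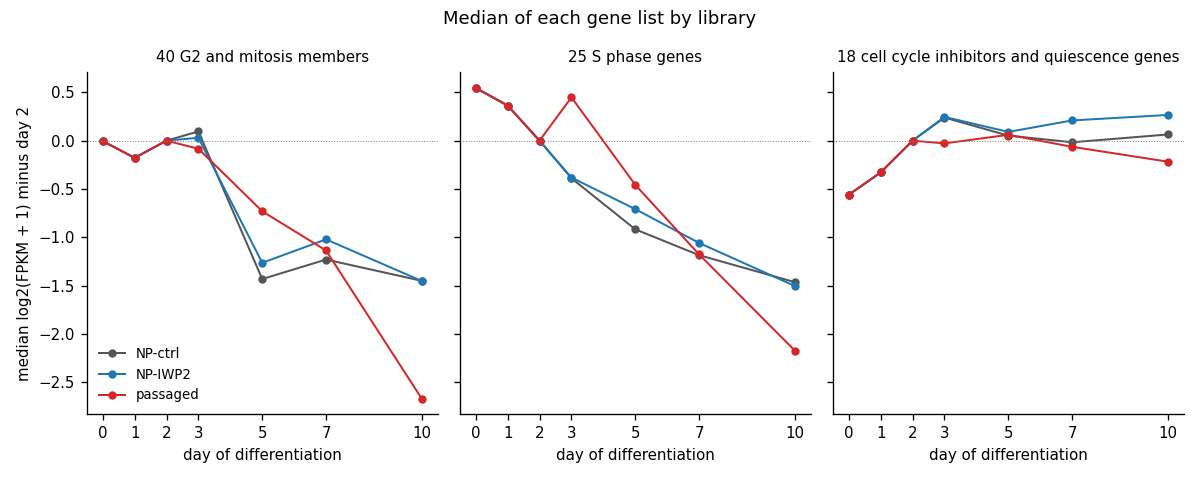
The median difference in log2(FPKM + 1) from day 2 is plotted against the day for the 40 members, 25 S phase genes and 18 inhibitors and quiescence genes above the filter in the 3 arms, with 1 library per point. S phase genes were above their day 2 level on day 3 in passaged cells only (0.45, against -0.39 and -0.38), where the members were at -0.08, 0.10 and 0.03.

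The 13 regulators of mitotic genes mostly exceeded their NP-ctrl level after passaging on day 3 (12 of 13, median 0.42) and divided on day 10, with 5 higher and 8 lower and a median of -0.17. MYBL2, which activates them with the MuvB complex, was at 42.2, 22.1, 22.8 and 14.2 in NP-ctrl and at 66.9, 30.2, 29.2 and 4.76 in passaged cells on days 3 to 10. FOXM1, the forkhead activator of the same genes, was at 20.3, 9.72, 12.3 and 7.60 in NP-ctrl and at 24.0, 13.1, 9.64 and 1.96 in passaged cells. Both were higher in passaged cells on days 3 and 5 and lower on day 10, with ratios of 0.336 (0.284 to 0.395) and 0.259 (0.214 to 0.311). LIN9, a subunit of the MuvB complex named here after its values were seen, went the other way on day 10. Its level was 8.88 in passaged cells, 7.04 in NP-IWP2 and 3.38 in NP-ctrl. The ratio of passaged to NP-ctrl was 2.63 (2.24 to 3.10). Other MuvB subunits in the list did not share this rise over NP-ctrl. LIN37 was at 0.96 against 1.66 and LIN52 at 4.59 against 5.27. RBBP4 was also lower in passaged cells, and LIN54, at 4.07, was close to its NP-ctrl level. E2F2, a factor of the E2F family, was at 3.01 in passaged cells on day 3, against 0.63 in NP-ctrl. The 8 G1 genes (cyclins, kinases, MYC and MYCN) were all lower on day 10 in passaged cells than in NP-ctrl, as were 11931 of 21206 genes. Their median was -0.82, and CCND2, a D cyclin, was at 7.06 against 32.1. The inhibitors and quiescence genes had no common direction, with 9 of 18 higher and 9 lower on day 10 and a median of 0.05. CDKN1C, the inhibitor p57, was at 35.4 in passaged cells and 189 in NP-ctrl there.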

How the data were processed

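Bulk RNA was measured in 15 libraries of H1 cells, 1 per arm and day, grouped by their labels. Per the labels, the authors trimmed reads with Cutadapt (1.9.1), aligned them to hg38 with HISAT2 (2.0.1) and counted genes with HTSeq (0.6.1). The deposited counts are whole reads per gene, and the deposited FPKM values are these counts scaled by exonic length and library total, which recomputation matched within 0.005. The named library kit is one for long reads, while these tools are for short reads, so values scaled by length carry that doubt. Whether strand was used in counting was not given in the sources used here. Of the members, 14 share exonic bases with another gene, 2 of them over 25% of their bases (NUSAP1 and PRC1). Coordinates of 39 members equalled GENCODE release 44.

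Members and lists were chosen with earlier results of these data known. Genes shown in full were those with the highest mean FPKM or the largest difference on day 3 or 10 in each role, plus AURKA, whose sign on day 10 was opposite. Counts of the 12 libraries of days 3 to 10 were tested with edgeR 4.0.16 (quasi-likelihood, TMM, R 4.3.3), with arm plus day or with a slope per arm, a Benjamini-Hochberg adjusted p under 0.05, and 21206 genes. DESeq2 1.42.0, limma 3.58.1 on log2(FPKM + 1), other scalings, no filter and left-out days were alternatives. The test script was first checked on simulated counts, with 200 genes changed in passaged cells. Against NP-ctrl it recovered 176 of 200 at a difference of 2 log2 between arms. For the difference in slope it recovered 179 of 200 at 1 log2 per day and 1 of 200 at 0.4. With 3 counts as a floor, a gene of 1 kilobase needs an FPKM of 0.148 to 0.226 by library.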

Additional observations from a re-analysis of the deposited data

Results flagged for a closer look

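From day 5 to day 7, 28 of the 40 members were lower on the later day in passaged cells and higher in both static arms, against 12.2% of all genes. This stood out because the arms moved in opposite directions, and the difference between arms in this step was not tested, since each arm has 1 library per day. Passaged cells had more of 39 members than NP-ctrl on day 5 and less of the same 39 on day 10, against 24.5% of all genes, and the exception was AURKA, which was higher on both days. This change of sign was not tested as such, and the test of the difference in slope over days 3 to 10 called 0 of 40 members in edgeR, with 4 at an unadjusted p under 0.05 (6 in DESeq2 and 6 in limma). Without day 3 in all arms, 36 of 40 had an unadjusted p under 0.05 in edgeR and 0 passed after adjustment. With day 10 left out instead, 0 had an unadjusted p under 0.05, and 33 of the 40 differences were positive.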

How the results depend on the processing

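Of the 88 other values of the counts of members called by the tests, 68 were within 1.5 times the count reported. Most of these 68 were 0 beside a reported 0, in the comparisons of arms and of slopes, so that they say little of stability. The counts for the slope within each arm moved more. The count for the slope of NP-ctrl, reported as 2 (764 of 21206 genes fell), was 1 with median-of-ratios size factors (728) and 0 in limma (579). It was 1 without the passaged library of day 3 (767), chosen after seeing the data. It was 9 in DESeq2 (1462), 9 without a filter (858 of 41457) and 11 over log2 of day (1211 of 21206). For NP-IWP2 it was 9 in DESeq2 (2061 of 21206 genes fell) and 2 in limma (1357). For passaged cells it was 38 in DESeq2 (2513 of 21206 genes fell), 36 in limma (2037) and 34 without a filter (1656 of 41457). It was 0 without the passaged library of day 3 (312 of 21206) and 0 without that of day 10 (193), both chosen after seeing the data. With 1 day left out in all arms, the slope counts ranged from 0 to 8 for NP-ctrl and 0 to 4 for NP-IWP2. The 8 and the 4 came without day 5 (298 and 617 of 21206 genes fell). For passaged slopes they ranged from 0 (without day 10, 201 genes) to 34 (without day 5, 1495 genes), with 31 without day 3. In the comparison of arms over all days, passaged minus NP-ctrl called 0 to 1 members. The 1 came without day 3 and was higher in passaged cells, as were 1064 of 21206 genes. Without day 3 the slope differences at an unadjusted p under 0.05 rose in number from 4 to 36 against NP-ctrl and from 6 to 33 against NP-IWP2. With day 10 left out both were 0. Medians of the members, read against the binomial interval of the median over the 40, stayed within it in 53 of 66 cases. The sign turned on day 3 against NP-ctrl in TPM (0.0844) and on day 7 with median-of-ratios size factors (0.0883) and without mitochondrial counts (0.0029), while TPM gave -0.16 on day 7. On day 10 against NP-ctrl the median was -1.78 in TPM and -1.57 with a pseudocount of 0.1. Against NP-IWP2 it was -0.0087 on day 3 in TPM, -0.0722 on day 7 with median-of-ratios size factors, and -1.70, -1.20 and -1.52 on day 10 in TPM, with those size factors and with a pseudocount of 0.1. From day 3 to day 10 in passaged cells it was -3.05 in TPM and -2.85 with a pseudocount of 0.1. In TPM the sign also turned on day 3 against NP-ctrl for CDC25B (0.0914), BUB1B (0.16), MAD2L1 (0.10) and TOP2A (0.19), and on day 7 for TPX2 (-0.0033). The cause of these changes was not tested. The arm fits were paired by day, which was their block. No paired analysis was possible by replicate number because the labels give none that the arms share. Depth limits NUSAP1, PRC1 and CENPA most in passaged cells on day 10, where they were under an FPKM of 1.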
